A study of Mus musculus with 6 samples.

Results

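Ribosome biogenesis is followed here through 52 genes for nucleolar proteins and ribosome assembly factors, a set known as driven by the transcription factor MYC. All 52 symbols were among the 13069 gene rows of the deposited table. The cultures are mouse glioblastoma (GBM) neurosphere lines, with 3 libraries from an ATRX knockout line (ATRX KO, line code C54B) and 3 from an ATRX wild type line (ATRX WT, line code C39E). Both lines come from tumours induced in neonatal C57BL/6 or FVB mice by injecting Sleeping Beauty plasmids into the ventricles. The shared plasmids carried NRAS and a short hairpin against p53, and a short hairpin against ATRX was added or left out. The labels speak of a knockout in one place and of a hairpin in another, and do not give the strain of either line, the age of the mice at tumour harvest or the passage number. Each genotype is 1 line, so that a difference between genotypes cannot be told apart from a difference between lines, and p-values measure only the spread between libraries of a line, which may be technical. Atrx itself was at 14.1, 16.6 and 17.1 RPKM in ATRX KO against 22.3, 22.7 and 21.6, lower by a log2 fold change of -0.48 (SE 0.068, adjusted p = 0.00013), so its transcript was reduced to 71.9% and not absent.

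Ribosomes are put together mainly in the nucleolus. RNA polymerase I copies the ribosomal RNA genes into a long precursor, small nucleolar ribonucleoproteins (snoRNPs) modify it, and separate sets of assembly factors fold and cut it into the small and the large subunit. Growing cells, tumour cells among them, make these factors in large amounts, and many of the genes are textbook targets of MYC.

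The ribosome assembly genes were higher in ATRX KO almost without exception. Of the 52, 50 rose, 1 fell (Nop10) and 1 gave no call (Bysl), with a median log2 fold change of 0.78 and quartiles of 0.52 and 0.98. Among all 12201 genes tested, 43.6% rose and 45.9% fell, and their median was -0.02. Here rose and fell mean that limma gave an adjusted p under 0.05 over all genes tested. Since most genes differ between these lines, a second test asked for a difference greater than 0.5 on the log2 scale. By that test 35 of the 52 rose and 1 fell, against 25.6% and 27.5% of all genes. Every ATRX KO library lay above every ATRX WT library for 50 of the 52, which held for 44% of all genes, and 1 lay below throughout (46.5% of all genes).

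No member was weakly expressed. Levels are given as RPKM, reads per kilobase of gene model scaled to library size, and the 52 genes spanned log2 RPKM 3.1 to 9.95 over the 6 libraries. All therefore passed the filter in both genotypes, and the fewest reads behind a member in a genotype were 2138. Of the 6011 tested genes with a mean level inside the range of the members, 50.2% rose and 38.9% fell, 25.6% and 16.1% did so in the test against 0.5, and the libraries were separate upward in 50.5% and downward in 39.3%. Libraries of a genotype lay close together. The range over the 3 libraries had a median of 0.09 in ATRX KO and 0.07 in ATRX WT on the log2 scale, and at most 0.21 and 0.15. Of all reads counted, the members took 1.11% to 1.15% in each ATRX KO library and 0.739% to 0.748% in each ATRX WT library. In the plot of members by library and by difference, 12 of the genes rose by log2 1 or more (17.2% of all genes did, and 14.2% of those in the level range), 27 by 0.5 to under 1, and 11 by less.

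**Figure D1:**
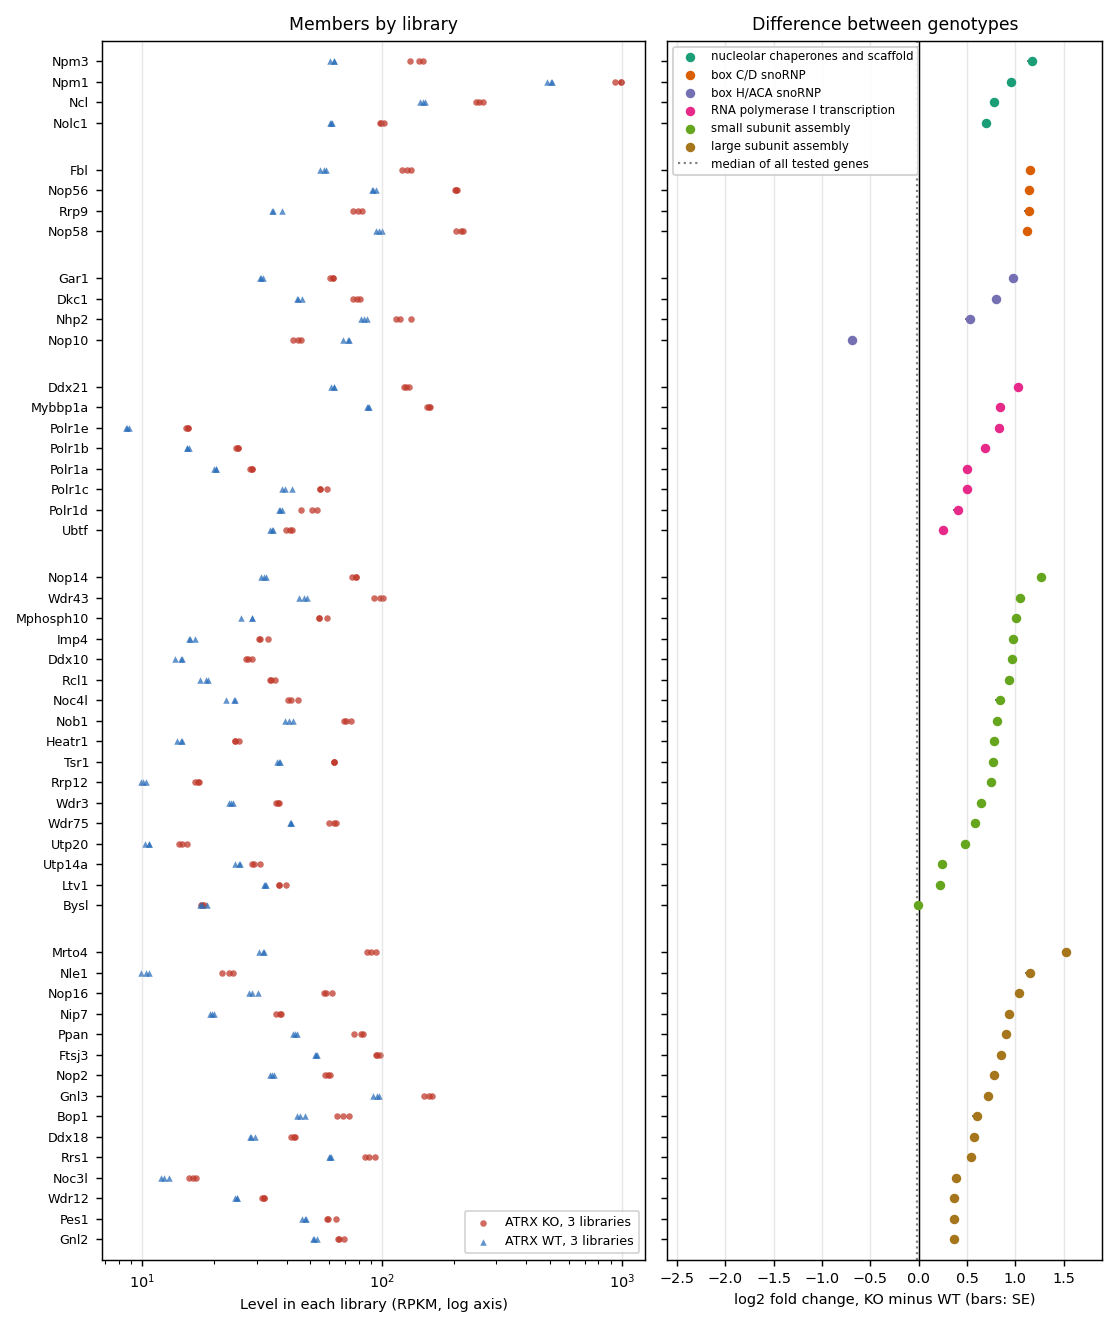
Left, the level of each of the 52 genes in each of the 6 libraries (RPKM, log axis; circles ATRX KO, triangles ATRX WT). Right, the log2 fold change of ATRX KO over ATRX WT with its standard error, genes grouped by role and the dotted line marking the median of all tested genes. The circles lie to the right of the triangles for 50 genes, the 2 exceptions being Nop10 and Bysl.

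The libraries also differed in markers of cell type and of proliferation, and the part of these in the rise was not tested. Beside each count of calls below stand the shares over all genes tested, of which 43.6% rose and 45.9% fell. Of 11 neural stem and glial markers tested, 10 fell and 1 (Sox9) rose, and their summed level was 115 to 125 RPKM in ATRX KO against 3180 to 3250 in ATRX WT. Olig1 had 0 reads in ATRX KO, Olig2 had 2 reads, and Gfap is not among the rows of the table, while Nes and Sox2 stood at 28.3 and 19.8 RPKM there. All 8 neuronal markers tested fell, from a sum over the 9 rows of 339 to 350 RPKM in ATRX WT to 7.95 to 8.61 in ATRX KO, with Dcx at 0 reads. Of 9 matrix and mesenchymal markers tested, 8 rose and Vim fell, with a median log2 fold change of 8.4. Col1a2 (mean 0.635 RPKM in ATRX KO against 0.0555) and Thy1 (0.656 against 1.12) were too low to be tested. Sums over 11 rows were 2580 to 2740 against 1850 to 1910 RPKM. Vim held most of the ATRX WT sum, with a mean of 1870 RPKM there against 1010 in ATRX KO. Of microglial markers only Tmem119 and Cd68 of 10 were rows of the table (30.6 to 35.1 against 5.6 to 6.36 RPKM in sum), and both rose. Of 6 endothelial markers 4 were rows (14.6 to 16.6 against 2.15 to 2.67 RPKM in sum), of which Cdh5 and Emcn rose, Esam fell and Kdr was too low to be tested. Most of the 16 proliferation markers went the other way from the ribosome assembly genes. There were 13 falls and 2 rises (45.9% and 43.6% of all genes), Aurka had no call, and the median was -0.41. By the test against 0.5, 6 fell and 0 rose (27.5% and 25.6% of all genes). Their summed level was 990 to 1020 RPKM in ATRX KO against 1290 to 1310 in ATRX WT. For comparison with the sums of these lists, all genes tested summed to 441000 to 452000 RPKM in ATRX KO against 375000 to 377000 in ATRX WT. Fewer expressing cells and less RNA in each cell cannot be told apart in such bulk libraries.

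**Figure D2:**
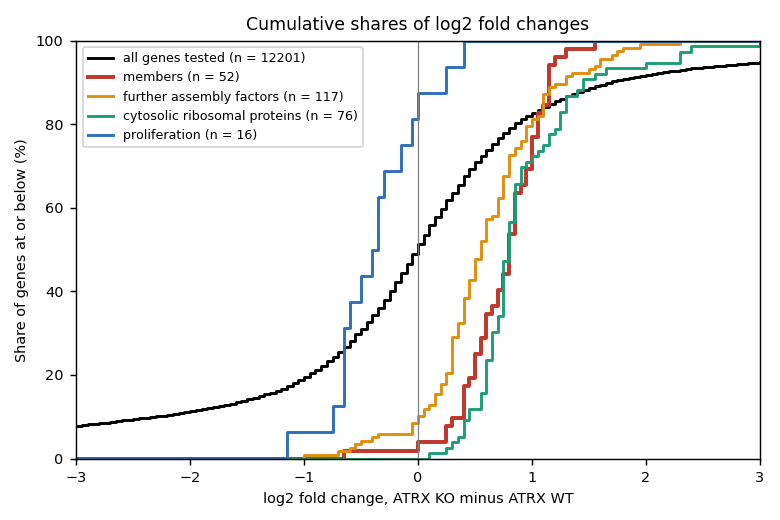
Cumulative share of genes (vertical axis, %) at or below a log2 fold change of ATRX KO over ATRX WT (horizontal axis) for all tested genes and 4 lists. The curve of the 52 members rises mostly to the right of 0, beside that of the ribosomal proteins. The curve of the proliferation markers rises mostly to the left of 0.

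MYC binds, with its partner MAX, to the E-box CACGTG, a palindrome that reads the same on both strands. RefSeq promoters (GRCm38.p6, 250 bases before to 50 after the start) were at hand for 46 of the 52 genes. In 9 of the 46 (19.6%) the E-box was present, against 11.8% of the 9945 genes of the deposited table with a promoter. It lay within the 50 bases after the annotated start in 7 of the 9, or 77.8%, whereas 13.2% of the 1412 E-boxes in promoters of the table's genes lay there. The 9 genes with an E-box had a median log2 fold change of 0.78 (0.22 to 1.15) and the 37 without one 0.80 (-0.69 to 1.52). The medians of both sets lay close together. A second palindrome, 10 bases long, was searched as well and found in none of the 53 member promoters, against 0.925% of those of the table's genes. A match of letters is a description and not evidence of binding, and its absence says nothing beyond this window.

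The promoters of the 4 genes with an E-box and the greatest rise are shown to make its place visible, 5′ to 3′ on the gene's strand with the E-box in capitals. The first base of the E-box is at position 24 after the start in Nle1 (chr11:82908346-82908645, minus strand), 18 in Wdr43 (chr17:71615965-71616264, plus strand) and 41 in Mybbp1a (chr11:72441077-72441376, plus strand). In Imp4 (chr1:34439579-34439878, plus strand) it is 121 bases before the start.
Nle1: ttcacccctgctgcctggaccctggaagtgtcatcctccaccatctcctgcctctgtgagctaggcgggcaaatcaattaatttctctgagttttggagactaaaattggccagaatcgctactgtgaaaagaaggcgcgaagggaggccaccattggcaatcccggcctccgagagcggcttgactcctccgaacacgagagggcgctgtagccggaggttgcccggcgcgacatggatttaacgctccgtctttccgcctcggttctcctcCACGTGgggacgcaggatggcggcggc
Wdr43: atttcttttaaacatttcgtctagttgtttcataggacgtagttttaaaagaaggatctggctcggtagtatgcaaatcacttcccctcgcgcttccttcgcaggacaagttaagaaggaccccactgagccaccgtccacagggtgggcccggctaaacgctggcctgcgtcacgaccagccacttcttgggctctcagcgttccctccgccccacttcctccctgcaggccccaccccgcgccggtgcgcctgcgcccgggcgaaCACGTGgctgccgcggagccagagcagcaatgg
Mybbp1a: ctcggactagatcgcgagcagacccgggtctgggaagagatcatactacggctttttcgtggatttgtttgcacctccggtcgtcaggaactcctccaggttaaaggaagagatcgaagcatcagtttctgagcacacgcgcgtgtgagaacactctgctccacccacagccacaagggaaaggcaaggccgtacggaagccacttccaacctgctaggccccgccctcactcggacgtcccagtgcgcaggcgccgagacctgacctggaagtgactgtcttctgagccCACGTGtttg
Imp4: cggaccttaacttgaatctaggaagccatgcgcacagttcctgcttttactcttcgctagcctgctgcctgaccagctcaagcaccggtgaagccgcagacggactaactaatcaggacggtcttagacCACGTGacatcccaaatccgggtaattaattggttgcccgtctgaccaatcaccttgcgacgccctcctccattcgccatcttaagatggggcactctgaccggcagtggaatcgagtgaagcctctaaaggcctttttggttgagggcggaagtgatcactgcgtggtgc

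The abundant chaperones of the nucleolus all rose. Npm1, nucleophosmin, which gives the granular part of the nucleolus its structure (chromosome 11, 33152287 to 33163206, GRCm38), had the highest level of the set. The 3 ATRX KO libraries held 938, 991 and 990 RPKM, and those of ATRX WT 507, 513 and 489 RPKM. The group means differed by a ratio of 1.93, with a log2 fold change of 0.95 (SE 0.037, adjusted p = 1.6e-08). After quantile normalization the difference was 0.48, still a call. Ncl, nucleolin, an RNA-binding protein that acts from transcription of ribosomal DNA to processing, was at 246, 265 and 254 RPKM against 148, 151 and 144 (log2 fold change 0.78, SE 0.035, adjusted p = 4.1e-08), and 0.49 after quantile normalization. Its level is low for its 162244 reads in ATRX KO because the gene model used holds 8257 bases. Npm3, a small relative of nucleophosmin, rose most in this group, from 63.3, 60.6 and 62.8 RPKM to 148, 131 and 142 (log2 fold change 1.17, SE 0.045, adjusted p = 1.5e-08). A processed pseudogene, Npm3-ps1, aligns to Npm3 with 98.9% identity and is a row of its own. It fell by 2.05, from 2.8 to 0.679 RPKM, so it moved against Npm3 at a far lower level. Nolc1, a phosphoprotein that shuttles snoRNP parts between Cajal bodies and the nucleolus, rose by 0.70.

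The proteins of box C/D snoRNPs, which guide the 2′-O-methylation of ribosomal RNA, rose by almost the same amount. The 4 log2 fold changes ran from 1.12 to 1.15, each with an SE of 0.027 to 0.048. Fbl, fibrillarin, the methyltransferase of the particle (chromosome 7, 28169710 to 28179269), reached 132, 121 and 127 RPKM in ATRX KO against 55.3, 57.2 and 58.4 RPKM (log2 fold change 1.15, SE 0.037, adjusted p = 4.6e-09). Nop58, one of the paired core proteins of the particle, was at 204, 218 and 214 RPKM against 97.6, 100 and 94.5. Its rise of 1.12 (SE 0.034, adjusted p = 3.5e-09) lay beside that of its partner Nop56, which was at 205, 203 and 201 RPKM against 91.6, 91.1 and 94.8 (1.14, SE 0.027, adjusted p = 7e-10). Rrp9, the protein specific to U3, the box C/D particle that takes part in cutting the precursor, rose by 1.14. In all 4 genes the groups were far apart, with ratios of the group means of 2.18 to 2.22.

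The box H/ACA particle, which carries out pseudouridylation and whose 4 core proteins also form part of telomerase, did not move as a unit. Dkc1, dyskerin, the pseudouridine synthase, rose by 0.80 (SE 0.033, adjusted p = 2.3e-08), and Gar1, which binds it, by 0.98. Gar1 was at 62.4, 62.2 and 60.7 RPKM in ATRX KO against 31.4, 31.8 and 31 (SE 0.026, adjusted p = 1.5e-09). Nhp2 had the highest level of the particle, 132, 114 and 119 against 84.4, 82 and 86.7 RPKM, and a smaller rise of 0.53 (SE 0.051, adjusted p = 9e-06) that did not pass the test against 0.5 (adjusted p = 0.52). Its difference was 0.33 scaled by the total of counted reads and 0.31 after quantile normalization. Nop10, the smallest core protein (chromosome 2, 112261926 to 112263269), was the one fall among the 52 genes. Its libraries held 45.9, 42.4 and 44.4 RPKM in ATRX KO against 68.6, 72.6 and 72.4, or 62.1% of the ATRX WT level. The groups were fully separate, ATRX KO being the lower (log2 fold change -0.69, SE 0.037, adjusted p = 1.7e-07, and adjusted p = 0.0011 in the test against 0.5).

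Genes of RNA polymerase I and its cofactors rose in all 8 cases, with a median of 0.59. Ddx21, an RNA helicase that occupies ribosomal DNA and snoRNAs, rose most, from 62.9, 62.9 and 61 RPKM to 123, 130 and 126 (log2 fold change 1.03, SE 0.030, adjusted p = 2.6e-09). Mybbp1a, a nucleolar protein that binds polymerase I, had the highest level, 159, 157 and 154 RPKM against 87.6, 86.3 and 88.2 (0.84, SE 0.026, adjusted p = 3.3e-09). The enzyme's own subunits in this group rose by less than Ddx21. Of subunits outside this group, Twistnb rose by more than Ddx21 (1.59), and Cd3eap (0.42) and Znrd1 (0.18) rose by less. Polr1a and Polr1b, the catalytic pair, rose by 0.50 and 0.69, and Polr1e by 0.83. Polr1c and Polr1d, which polymerase III uses as well, rose by 0.50 and 0.41. Polr1d varied most among the subunits in ATRX KO, with 53.4, 51.1 and 46 RPKM against 38.1, 37.2 and 37.4 in ATRX WT, and the groups still did not overlap. Ubtf, which opens the ribosomal DNA for the polymerase, rose by 0.25 (SE 0.031, adjusted p = 5.2e-05). Scaling by the total of counted reads, and not by the authors' library sizes, gave Ubtf a difference of 0.05 and no call (adjusted p = 0.12).

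Small subunit assembly factors rose in 16 of 17 cases, with a median of 0.78. Nop14, a core part of the early small subunit precursor (chromosome 5, 34638536 to 34660148), went from 32.8, 32.3 and 31.2 RPKM to 74.6, 77.9 and 78.2 (log2 fold change 1.26, SE 0.032, adjusted p = 1e-09). Wdr43, a factor that joins the precursor while it is transcribed, had the highest level of this group, 92.8, 101 and 98.4 RPKM against 47.3, 48.5 and 45.2 (1.05, SE 0.040, adjusted p = 1.3e-08). Its partners in that step within this group rose by less, Heatr1 by 0.78 and Wdr75 by 0.58. Of partners outside this group, Cirh1a rose by more than Wdr43 (1.69), Utp15 rose by less (0.76) and Nol11 fell (-0.1). Mphosph10 and Imp4, which bind the U3 particle, rose by 1.01 and 0.98, and the helicase Ddx10 by 0.96. Rcl1 (0.93), Noc4l (0.84), Wdr3 (0.64), Utp20 (0.48) and Utp14a (0.24) complete the early factors of this group.

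Among factors of later small subunit steps, Nob1, the nuclease that makes the final cut of 18S ribosomal RNA, rose by 0.81, Tsr1 by 0.77 and the export factor Rrp12 by 0.75, whereas Ltv1 rose by 0.22. Bysl, bystin, an assembly factor of the small subunit (chromosome 17, 47599331 to 47611492), held 18, 17.6 and 17.7 RPKM in ATRX KO against 17.7, 17.4 and 18.7. The groups overlapped, and the difference of -0.01 (SE 0.036) did not pass (adjusted p = 0.76). Scaled by the total of counted reads, Bysl was lower by a log2 difference of -0.21 (adjusted p = 0.00054), and after quantile normalization by -0.11 (adjusted p = 0.015). Under the first of these scalings Utp14a and Ltv1 lost their calls, at differences of 0.04 and 0.03 (adjusted p = 0.28 and 0.48).

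All 15 large subunit assembly factors rose, with a median of 0.72 and a range of 0.36 to 1.52. Mrto4, a relative of the ribosomal stalk protein that holds its place in the precursor (chromosome 4, 139347435 to 139352576), rose most of all 52 genes. Its level was 94.1, 90.3 and 86.6 RPKM in ATRX KO against 31.9, 30.7 and 32.1 (log2 fold change 1.52, SE 0.036, adjusted p = 7.5e-10). Nle1, which is removed when the subunit matures, rose by 1.15, Nop16 by 1.04, Nip7 by 0.93 and Ppan by 0.90. The RNA methyltransferase genes Ftsj3 and Nop2 rose by 0.85 and 0.78. Gnl3, nucleostemin, a GTP-binding nucleolar protein of stem and tumour cells, had the highest level of the group, 150, 162 and 157 RPKM against 95.1, 97.2 and 91.9 (0.72, SE 0.036, adjusted p = 8.7e-08). The PeBoW complex, made of Pes1, Bop1 and Wdr12 and needed to process the large subunit precursor, rose by less than the group's median. Pes1 rose by 0.36, Wdr12 by 0.37 and Bop1 by 0.60, and none of them passed the test against 0.5. Gnl2 (0.36), Noc3l (0.39), Rrs1 (0.54) and Ddx18 (0.57) did not pass it either.

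The 52 genes lie on 17 chromosomes, and the median over their neighbours was mostly near 0. For each member the median log2 fold change was taken over unlisted genes within 5 Mb to either side whose mean level reached log2 RPKM 3, 9 to 99 genes each. These medians ran from -0.41 to 0.92, with a median of 0.03, and 49 of the 52 genes (94.2%) had a higher log2 fold change than their neighbours, against 51.5% of 5635 genes in the same level range. The neighbours of Wdr75, Wdr43, Polr1e, Wdr3 and Heatr1 had medians of 0.36 to 0.42. Mrto4 stood apart in this respect: its 42 neighbours on distal chromosome 4 had a median of 0.92, so the greatest rise of the set lies in a stretch that was higher as a whole. Ltv1 on chromosome 10 rose by less than its 11 neighbours (median 0.76), while Gnl2, on chromosome 4 at 125 Mb, rose among 62 neighbours with a median of -0.41. Leaving out the 3 members on chromosome 4 (none lies on chromosome 16) left 49, of which 47 rose, with a median of 0.78.

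**Figure D3:**
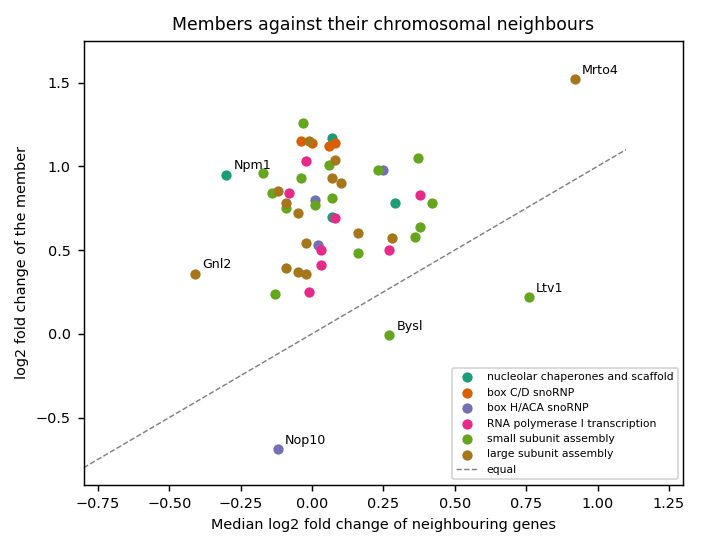
Log2 fold change of each of the 52 genes (vertical axis) against the median log2 fold change of its chromosomal neighbours within 5 Mb (horizontal axis), coloured by role, the dashed line marking equal values. Most points lie above the line at neighbour medians near 0, with Mrto4 at the far right and Nop10, Bysl and Ltv1 below the line.

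A wider list of 117 ribosome assembly factors, which shares no gene with the 52, moved in the same direction to a smaller extent. There were 102 rises, 9 falls and 6 without a call, the median was 0.55, and 52 rose and 3 fell in the test against 0.5. Among all genes tested, 43.6% rose and 45.9% fell, and 25.6% and 27.5% did so in the test against 0.5. The greatest rises were Noc2l (2.29), a large subunit factor, Nol9 (1.92), a kinase of RNA ends needed for the large subunit, and Lsg1 (1.80), a GTPase of the last steps in the cytoplasm. For Noc2l the ATRX KO libraries held 158, 149 and 155 RPKM against 31.5, 31 and 32. These 3 genes also lie in stretches that were higher as a whole, Noc2l and Nol9 at the end of chromosome 4 (neighbour medians 1.38 and 1.21) and Lsg1 on chromosome 16 (0.94). Of the 101 factors placed on chromosomes other than 4 and 16, 87 rose and 8 fell, with a median of 0.48. The greatest falls were Mphosph6 (-1.01), a partner of the RNA exosome, Rrn3 (-0.72) and Znhit3 (-0.63). Rrn3 is the factor that brings polymerase I to its promoter, and it was at 32.2, 33.1 and 32.5 RPKM against 52.5, 54.7 and 53.7, opposite to the polymerase subunits. The neighbours of Rrn3 on chromosome 16 had a median of -0.50. Of the Taf1 genes, whose products also act in polymerase I initiation, Taf1b fell (-0.57). Taf1a had no call (0.02), and Taf1c (0.17) and Taf1d (0.26) rose.

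The products that these factors assemble were higher too. Of 76 cytosolic ribosomal protein genes tested, 75 rose, against 43.6% of all genes, and Rpl41 had no call. By the test against 0.5, 56 rose and 0 fell (25.6% and 27.5% of all genes). These values use the authors' library sizes, and those under other scalings are not given here. The median was 0.76, and the summed level was 60300 to 66200 RPKM in ATRX KO against 34300 to 35100 in ATRX WT. Over all genes tested the sum was also higher in ATRX KO, 441000 to 452000 against 375000 to 377000 RPKM. Among the greatest rises were Rpl35a (2.96) on chromosome 16, Rpl29 (2.36) on chromosome 9 and Rps6 (2.28) on chromosome 4 (neighbour medians 0.94, 0.00 and 0.94), all chosen after their values were seen. Ribosomal protein genes have many processed pseudogenes, so that single values are uncertain. Of 9 genes that host snoRNAs in their introns, 7 rose and 2 fell (43.6% and 45.9% of all genes). The rises were led by Snhg6 (1.58), Snhg1 (1.52) and Gas5 (1.37), and Snhg3 and Snhg4 fell by 0.61 and 0.35. By the test against 0.5, 6 of the host genes rose and 1 fell (25.6% and 27.5% of all genes).

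Of the MYC family, Myc itself was far higher in ATRX KO. The ATRX KO libraries held 600, 559 and 551 RPKM and the ATRX WT libraries 46.5, 45.3 and 47.4, a ratio of the group means of 12.3 (log2 fold change 3.62, SE 0.037, adjusted p = 9.6e-12). Its 20 neighbours within 5 Mb on chromosome 15 had a median of 0.62. Mycn went the other way, with 0.176, 0.23 and 0.265 RPKM against 7.6, 8 and 7.74 (-5.14, SE 0.143, adjusted p = 1.9e-09), and Mycl fell by 1.11 (-0.74 after quantile normalization). Max, the partner of all 3, rose by 0.48, or 0.28 when scaled by the total of counted reads. Of the 15 network genes tested 10 rose and 5 fell (43.6% and 45.9% of all genes). By the test against 0.5, 5 rose and 4 fell (25.6% and 27.5% of all genes). The genes whose products compete with MYC for MAX or for its sites were split. Mxi1 (2.15), Mnt (1.26), Mga (1.16) and Mxd1 (0.60) rose, while Mxd3 (-1.50) and Mxd4 (-1.24) fell. Of the Usf genes, whose products also bind the E-box, Usf1 fell (-0.29) and Usf2 rose (0.25). The difference in Myc is large beside that in the ribosome assembly genes, whose greatest rise was 1.52. Whether it bears on their rise was not tested, since every gene compared here differs between the same pair of lines.

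**Figure D4:**
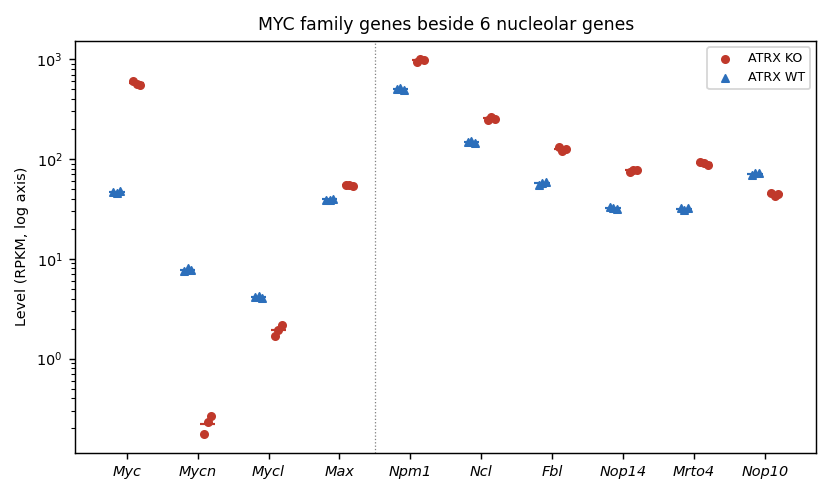
Level (RPKM, log axis) of 4 MYC family genes and 6 ribosome assembly genes in each library, with 3 points and a horizontal line for the mean in each genotype. The means of Myc are 570 RPKM for ATRX KO against 46.4, Mycn and Mycl lie lower in ATRX KO, and Nop10 is the one assembly gene shown that is lower there.

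Some members share sequence with other genes. By alignment of transcripts, 6 of the 52 (Npm1, Npm3, Fbl, Pes1, Ddx18 and Mrto4) have a copy elsewhere with at least 95% identity over at least 50% of their length, mostly a processed pseudogene. In addition 21 members share exon bases with a gene on the opposite strand, above 10% of their exon bases in 3 of them (Wdr3, Utp14a and Tsr1). Whether the authors' counting used the strand or reads that match several places is not given in the sources used here, so values of these genes are less certain.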

How the data were processed

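RNA from 6 neurosphere libraries was sequenced by the authors from 4 ug of total RNA each, with a stranded mRNA kit and paired reads of 42 nt, per the labels' protocols. The authors used edgeR 3.20.9, HTSeq 0.11.2, STAR 2.5.3a, Trim Galore and FastQC, per the submitters' processing notes, where mm9 and mm10 both appear as genome builds, with no role stated. The authors deposited log2 RPKM values for 13069 genes, and their filter is not given in the sources used here.

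From these values whole reads were recovered for 100% of genes (tolerance 0.0001 reads), with a mean prior count of 2 reads. The table held 22177228 to 32477269 reads per ATRX KO library and 34966108 to 38039847 per ATRX WT library. The library sizes in the deposited values were 0.932 to 0.935 and 1.068 to 1.073 of these.

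A gene was tested where 3 or more libraries reached log2 RPKM 0, which kept 12201 and left out 868. limma 3.58.1 in R 4.3.3 was fitted to the deposited log2 values (eBayes with a trend, 4 residual df and 4.2 prior df, two-sided, Benjamini-Hochberg over all tested genes, threshold 0.05), with limma's treat for differences over 0.5. Log2 fold changes are ATRX KO less ATRX WT, with the standard error (SE), n = 3 libraries each. Recovery and fit were tested on simulated data. Positions are GENCODE M21 (GRCm38), matched by symbol, which gave 1 gene for 12598 symbols and all 52 members. Copies were sought with BLAST 2.17.0. Within each role group the greatest rise, the greatest fall and the highest level were named with all library values, together with Ncl, Npm1, Fbl and any member without a call, and Nop56 and Polr1d, chosen after their values were seen. In the wider list the 3 greatest rises and falls were named by rule, and in the MYC network Myc, Mycn, Mycl and Max. Other genes of both lists that the text names, among them Twistnb, Cirh1a and the Taf1, Mxd and Usf genes, were added outside this rule. Members and lists were chosen with earlier results of these data known. Alternatives were other scalings, filters, prior counts and variance models, a replicate block, and each library left out.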

Additional observations from a re-analysis of the deposited data

How the results depend on the processing

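With each library left out in turn, 50 members rose and 1 fell every time, 34 to 36 rose by more than 0.5, the median was 0.77 to 0.79, and the difference of Bysl ran from -0.03 to 0.02 (0.02 without ATRX WT replicate 3). The same 50 genes also rose with no filter or a filter at log2 RPKM 2, prior counts of 0.25 and 8, no mean-variance trend, voom on recovered reads, median scaling and quantile normalization. Scaling mattered most. Scaled by the total of counted reads, the median of all tested genes moved by -0.20, 47 of the 50 kept their rise, 2 members fell (Bysl and Nop10), 29 rose by more than 0.5, the members' median was 0.58, and 86 further assembly factors rose while 16 fell. Quantile normalization gave 2 falls, the same pair, and a median of 0.61. The value moved by more than 1.5 times in 14 members when scaled by counted reads and in 11 after quantile normalization, Npm1 and Ncl among the latter. Median scaling gave a median of 0.81 and put Bysl at 0.01 without a call. Scaling by counted reads moved Bysl from -0.01 to -0.21, Ncl from 0.78 to 0.59 and Mrto4 from 1.52 to 1.32, so that shift was not particular to Bysl. The cause of the shift in Bysl after quantile normalization was not tested. Replicate numbers are shared between genotypes but do not pair the libraries by any label. Deviations from the group means of same-numbered libraries correlated at -0.0455, 0.0513 and -0.0383 across genes, and not every library correlated best with its own number. With the number as a replicate block, 50 members rose and 1 fell, with a median of 0.78, and 5287 of all genes rose and 5564 fell. Depth limits no call among the members, each with at least 2138 reads in a genotype, though small differences such as those of Ltv1, Utp14a and Ubtf are relative to the scaling.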

Other observations

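Small deviations between libraries of a genotype went with gene length to differing degrees. Over the 52 members, the log2 difference of ATRX KO replicate 2 minus replicate 1 had a median of 0.00 and a Pearson correlation of 0.55 with log2 gene length, and replicate 3 gave 0.44 against replicate 1 and -0.42 against replicate 2. In ATRX WT the corresponding correlations were 0.16, -0.30 and -0.38. These correlations are over genes of the same libraries, and are given without a test. Thus Npm3, with a gene model of 860 bases, was lower in ATRX KO replicate 2 than in replicate 1 (131 against 148 RPKM), and Ncl, with 8257 bases, was higher (265 against 246 RPKM). The log2 fold change between genotypes had a correlation of -0.09 with log2 length and of 0.22 with the mean level over the same 52 genes.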
